A study of Mus musculus with 8 samples.

Results

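The genes described here are 33 markers of macrophages, chosen by name from the 55487 genes of the count table, and all 33 were found there and had enough counts to be tested. They were measured in the sciatic nerves of mice at postnatal day 6, in 4 control libraries (Ctrl, the controls) and 4 libraries with a conditional knockout (CNP-Cdk7cKO, the knockouts). Ctrl mice carried floxed Cdk7 alleles (Cdk7lox/lox) with unmodified Cnp (CNP+/+), and CNP-Cdk7cKO mice carried the same floxed alleles with Cre at 1 Cnp allele (CNPcre/+), so the floxed alleles were shared by both groups. The Cre driver was used to remove Cdk7 from Schwann cells, which make the myelin of peripheral nerve, and it takes up a Cnp allele. The sequenced RNA came from the whole nerve, and nothing in the labels says whether a library was made from 1 animal. The p-values therefore rest on the spread among libraries, which among libraries of the same sex may be technical.

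Macrophages live in every peripheral nerve. They depend on the receptor Csf1r and its ligands, are specified by the transcription factor PU.1 (gene Spi1), and clear debris, including myelin lipid, by engulfment. Those among the axons (endoneurial) are known for Cx3cr1, and those of the outer sheath (epineurial) for scavenger and lectin receptors such as Cd163, Lyve1, Mrc1 and Clec10a. Trem2 is a lipid-sensing receptor of phagocytes that signals through the adaptor Tyrobp.

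Library totals ranged from 16897231 to 21527886 estimated counts. Levels are given in CPM, which are counts scaled to library size. Each fold change divides the knockouts by the controls. A gene is said to rise or fall where the Benjamini-Hochberg adjusted p of edgeR's quasi-likelihood test was under 0.05, with 15056 genes tested. Cdk7 was lower in all 4 CNP-Cdk7cKO libraries, with 9.62 to 12.7 CPM against 20.6 to 22.2 CPM in the controls. Xist and the Y-linked genes marked Ctrl 2, 3 and 4 as male and the remaining 5 libraries as female. The control libraries therefore did not all come from the same animal. The summed level of 20 skeletal muscle genes was 596 to 5645 CPM in the controls, highest in Ctrl 4, and 115 to 648 CPM in the knockouts.

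Macrophage transcripts were present in every library. Csf1r measured at least 111 CPM and C1qa at least 58.5 CPM in each, and Cx3cr1 and Trem2 were detected in all 8. Per exon length, C1qa was the highest member at a mean of 66.9 CPM per kb over all libraries, followed by C1qb (57.0 CPM per kb) and Lyz2 (54.3 CPM per kb). In the controls alone Lyz2 (51.3 CPM per kb) was above C1qb (49.6 CPM per kb), a difference within the spread of either gene. Trem2 stood at 2.65 CPM per kb, and Ccr2, Ptprc and Timd4 were the lowest members at 0.660, 0.324 and 0.267 CPM per kb. Markers of other white blood cells were low, and those of red cells were high. The 5 listed B-cell genes summed to 0.731 to 1.86 CPM in the controls and 1.40 to 2.40 CPM in the knockouts, and the 9 T-cell and NK-cell genes to 2.20 to 4.13 and 3.43 to 5.54 CPM. The 11 neutrophil genes summed to 5.85 to 12.8 and 5.12 to 10.1 CPM, and of them Mmp8 fell. The 7 erythroid genes summed to 745 to 2164 CPM in the controls and 933 to 1469 CPM in the knockouts, with 0 of 7 called. The part of these cells in the members' values was not tested.

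**Figure D1:**
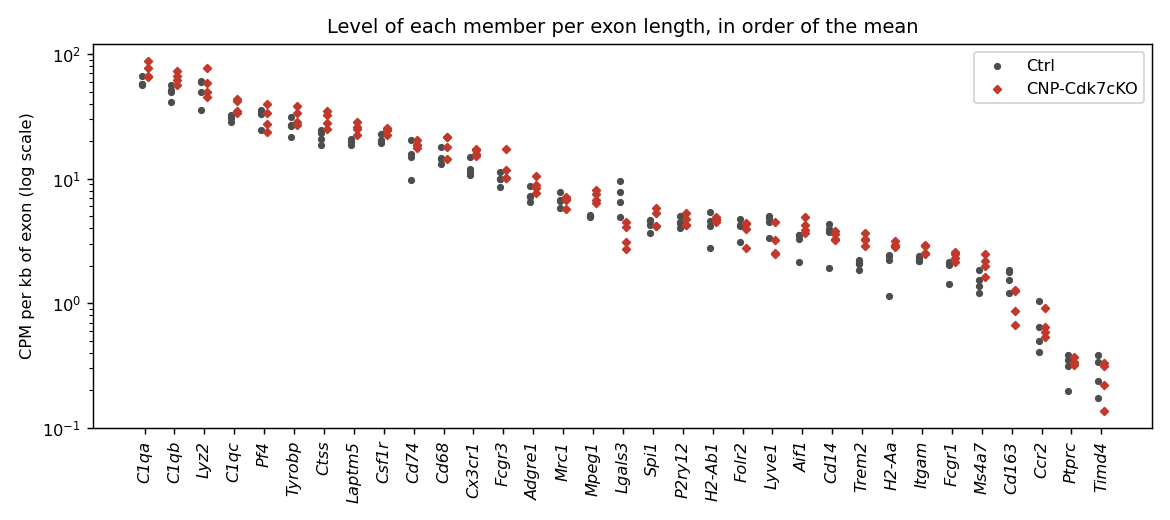
Level of each of the 33 members in CPM per kb of exon (log axis), ordered by the mean over all libraries; grey circles are the 4 Ctrl and red diamonds the 4 CNP-Cdk7cKO libraries. C1qa is highest at a mean of 66.9 CPM per kb and Timd4 lowest at 0.267 CPM per kb.

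Of the 33 members, 9 rose (27.3%) and 1 fell (3.03%), where 5.07% of all tested genes rose and 6.60% fell (11.7% in either direction). The 9 were Trem2, Mpeg1, Laptm5, Cx3cr1, Ctss, Csf1r, C1qa, C1qb and C1qc, and the 1 was Lgals3. The median log2 fold change of the members was 0.27, against 0.00 over all genes, and 25 of 33 were positive, against 50.7% of all genes. All 4 CNP-Cdk7cKO libraries lay above all 4 Ctrl libraries in 10 members, against 9.34% of all genes, and below them in 1, against 9.51%. In whole-nerve RNA, more cells of a type and more RNA per cell cannot be told apart.

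Several of these calls changed with the libraries used and with sex or muscle RNA in the fit. The count of rises was 5 without Ctrl 1, Ctrl 2 or CNP-Cdk7cKO 4 and 4 without Ctrl 3 or CNP-Cdk7cKO 3. Trem2, Mpeg1, Laptm5 and Cx3cr1 rose, and Lgals3 fell, whichever library was left out. Without Ctrl 1 all controls left were male and all knockouts female, so sex and genotype cannot be told apart there. Xist was nearly absent from Ctrl 2 to 4. With it as a covariate the genotype difference therefore rests on Ctrl 1 against the knockouts, much as among the female libraries alone. With Xist as a covariate 1 rise passed (C1qb) and 0 falls, and with the muscle genes as a covariate 1 rise (Cx3cr1) and 1 fall (Lgals3). Over all genes, 763 rose and 994 fell without a covariate, 75 and 163 with Xist, and 131 and 195 with the muscle genes. The median over the members was 0.43 with Xist and 0.30 with the muscle genes, against 0.27 without a covariate. Among the female libraries Ctrl 1 alone stands for the controls, and its variance is taken from the knockouts. The spread of the controls is therefore not measured there. All 10 of the calls kept their sign in that fit, and the median was 0.41 over the members and 0.01 over all genes. Ctrl 1 and the knockouts are also part of the main comparison, so the shared sign is not independent of it. None of the CNP-Cdk7cKO libraries was male. Ctrl 1 had the lowest summed level of the members, 760.1 CPM against 847 to 917 CPM in the other Ctrl libraries and 902 to 1129.6 CPM in the knockouts.

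**Figure D2:**
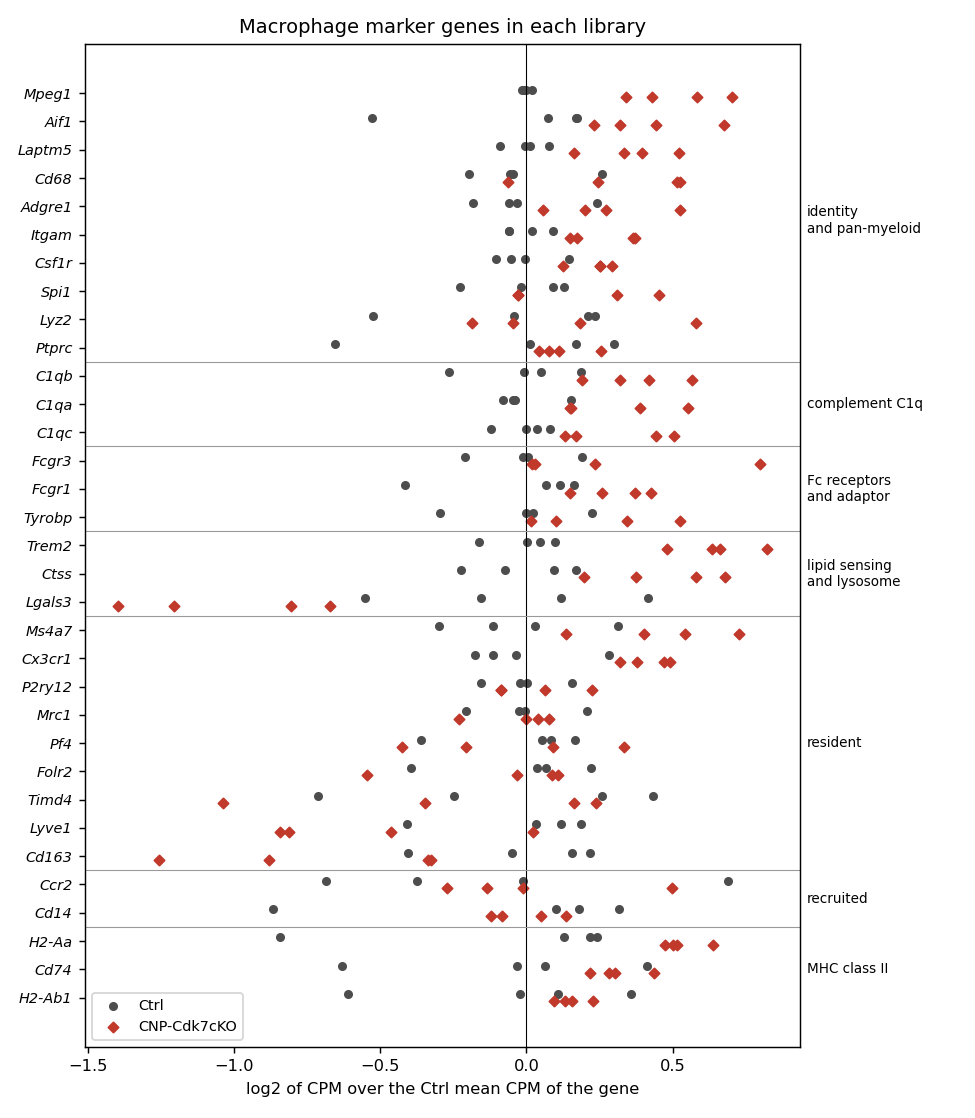
Each member in each library, as the log2 of its CPM over the Ctrl mean CPM of that gene (horizontal axis), grouped by role; grey circles are Ctrl and red diamonds CNP-Cdk7cKO. Red points lie to the right for Mpeg1, Trem2 and the C1q genes and to the left for Lgals3, while Mrc1, P2ry12 and Pf4 overlap.

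Of the 10 genes of macrophage identity 3 rose. Mpeg1 (chromosome 19, 12460779 to 12465283, GRCm38, as for all positions of genes here) encodes a pore-forming protein of the phagosome. It measured 21.6, 21.7, 21.5 and 22.0 CPM in controls 1 to 4 and 27.5, 29.2, 32.5 and 35.3 CPM in knockouts 1 to 4. The groups did not overlap, and the SD of the controls was 0.237 CPM (log2 fold change 0.52 ± 0.08 SE, edgeR adjusted p = 0.00181). Laptm5, a lysosomal membrane protein of blood cells, measured 70.7, 75.9, 74.9 and 79.3 CPM in the controls and 84.1, 94.8, 98.9 and 108 CPM in the knockouts, again with no overlap (0.36 ± 0.07, edgeR adjusted p = 0.00861). Csf1r, the receptor on which macrophages depend, was at 119 ± 9.05 CPM (SD, n = 4) in Ctrl and 139.9 ± 6.75 CPM in the knockouts (0.23 ± 0.06, edgeR adjusted p = 0.0303), and the ranges met, since Ctrl 4 had 132 CPM and CNP-Cdk7cKO 1 had 130.1 CPM. The call of Csf1r ended without any 1 of 6 libraries (adjusted p between 0.0651 and 0.089), all but Ctrl 4 and CNP-Cdk7cKO 1. Of its exon bases 15.1% are shared with Hmgxb3 on the other strand, which measured 45.0 ± 2.52 and 44.7 ± 4.48 CPM.

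The other identity genes did not pass, although all 10 of the group had a positive log2 fold change. The macrophage surface receptor gene Adgre1 (F4/80) measured 23.8 ± 3.06 and 28.8 ± 4.01 CPM (SD, n = 4), and Cd68, a glycoprotein of the lysosome, 18.9 ± 2.58 and 23.7 ± 4.31 CPM. Aif1, which encodes the calcium-binding protein Iba1, measured 3.31, 5.38, 5.02 and 5.36 CPM in the controls and 5.59, 5.95, 6.48 and 7.61 CPM in the knockouts. Its groups did not overlap, but Ctrl 1 was well below the other controls and the gene did not pass (log2 fold change 0.42, edgeR adjusted p = 0.141). Itgam, the integrin CD11b of myeloid cells, did not overlap either (11.3 ± 0.564 and 13.7 ± 1.10 CPM, edgeR adjusted p = 0.0666). It shares 68.7% of its exon bases with Gm49368 on the same strand, which held a mean of 1.875 counts. Spi1 measured 11.5 ± 1.24 and 13.2 ± 2.25 CPM, Ptprc, the leukocyte phosphatase CD45, 5.68 ± 1.47 and 6.19 ± 0.410 CPM, and the lysozyme gene Lyz2 67.5 ± 15.1 and 75.5 ± 18.2 CPM. Lyz2 has a close copy in Lyz1, so reads between them may be split, and Lyz1 measured at most 0.367 CPM.

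The 3 genes of complement C1q, which encode the chains of the molecule that opens the classical complement pathway and tags debris for engulfment, rose together. They are neighbours on chromosome 4 (GRCm38, minus strand): C1qb at 136880129 to 136886187, C1qc at 136889804 to 136893065 and C1qa at 136895917 to 136898803. C1qb measured 44.9, 53.7, 55.8 and 61.4 CPM in the controls and 61.6, 67.3, 72.1 and 79.9 CPM in the knockouts (log2 fold change 0.38 ± 0.10, edgeR adjusted p = 0.0294). Its groups did not overlap, though Ctrl 4 and CNP-Cdk7cKO 1 all but met. C1qc went from 59.6 ± 3.55 to 74.6 ± 9.75 CPM (SD, n = 4; 0.32 ± 0.09, edgeR adjusted p = 0.0332) and C1qa from 61.9 ± 4.69 to 77.3 ± 10.6 CPM (0.32 ± 0.09, edgeR adjusted p = 0.0438). In C1qa the ranges touched, where Ctrl 4 had 68.8 CPM and CNP-Cdk7cKO 2 had 68.6 CPM. CNP-Cdk7cKO 3 and 4 had the highest value of all 3 genes, and 0 of the 3 passed without Ctrl 1, Ctrl 2, Ctrl 3, CNP-Cdk7cKO 3 or CNP-Cdk7cKO 4.

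Receptors for antibody and the adaptor gene Tyrobp did not pass. Fcgr1 and Fcgr3, activating receptors for IgG, measured 4.97 ± 0.836 and 17.2 ± 1.93 CPM in the controls and 6.14 ± 0.520 and 21.4 ± 5.92 CPM in the knockouts (SD, n = 4). Fcgr3 was highest in CNP-Cdk7cKO 4, at 30.0 CPM. Tyrobp, the adaptor of Trem2 and of other receptors, measured 17.8 ± 2.57 and 21.3 ± 3.43 CPM (log2 fold change 0.26, 95% interval -0.03 to 0.54, edgeR adjusted p = 0.225).

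The genes of lipid sensing and the lysosome moved in opposite directions. Trem2, on chromosome 17 from 48346401 to 48354147 (GRCm38), measured 10.2, 10.9, 9.10 and 10.5 CPM in controls 1 to 4 and 15.8, 14.2, 16.1 and 18.0 CPM in knockouts 1 to 4. The groups did not overlap, and the rise was 1.58-fold (log2 fold change 0.66 ± 0.09 SE, edgeR adjusted p = 0.00171). The log2 fold change was 0.66 with Xist as a covariate (edgeR adjusted p = 0.0801) and 0.61 with the muscle genes (edgeR adjusted p = 0.0872). Among the female libraries, with Ctrl 1 as the only control, it was 0.65. Ctss, a lysosomal protease that also prepares MHC class II molecules, went from 29.4 ± 3.53 to 40.8 ± 5.97 CPM with no overlap (0.47 ± 0.11, edgeR adjusted p = 0.02), and its call ended when either Ctrl 3 (adjusted p = 0.0577) or CNP-Cdk7cKO 3 (adjusted p = 0.0537) was left out.

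Lgals3 (chromosome 14, 47367751 to 47386160) encodes galectin-3, a sugar-binding protein of activated phagocytes that other cells of the nerve can also make. It measured 14.5, 17.8, 11.97 and 9.12 CPM in the controls and 5.07, 5.80, 8.38 and 7.65 CPM in the knockouts. Every CNP-Cdk7cKO library was below every Ctrl library, a 1.98-fold lower level (log2 fold change -0.99 ± 0.21, edgeR adjusted p = 0.0131). With Xist as a covariate the value was -1.11 (edgeR adjusted p = 0.134) and with the muscle genes as a covariate it was -1.52 (edgeR adjusted p = 0.0222).

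The letters before the start sites are shown for Trem2, for C1qb and C1qc, neighbours that rose together, and for Lgals3, the member that fell. The motif searched was GAGGAA, the core letters of PU.1 sites, on both strands, so that the other strand reads as TTCCTC. Each line gives the 250 bases before the RefSeq start (GRCm38.p6), 5′ to 3′ on the gene's strand, with the motif in capitals. The RefSeq starts of Lgals3 and C1qc lie inside the longer GENCODE models of these genes.
Trem2, chr17:48346151-48346400, plus strand: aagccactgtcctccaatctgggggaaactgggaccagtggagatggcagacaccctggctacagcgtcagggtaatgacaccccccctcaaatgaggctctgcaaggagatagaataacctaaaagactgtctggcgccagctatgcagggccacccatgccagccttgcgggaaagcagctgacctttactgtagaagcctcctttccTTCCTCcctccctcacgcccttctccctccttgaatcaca
C1qb, chr4:136886201-136886450, minus strand: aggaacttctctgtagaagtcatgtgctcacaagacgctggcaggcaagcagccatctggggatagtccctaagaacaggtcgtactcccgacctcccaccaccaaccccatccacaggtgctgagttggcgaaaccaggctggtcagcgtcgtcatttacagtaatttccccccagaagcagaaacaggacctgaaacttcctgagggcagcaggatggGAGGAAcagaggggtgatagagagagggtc
C1qc, chr4:136892915-136893164, minus strand: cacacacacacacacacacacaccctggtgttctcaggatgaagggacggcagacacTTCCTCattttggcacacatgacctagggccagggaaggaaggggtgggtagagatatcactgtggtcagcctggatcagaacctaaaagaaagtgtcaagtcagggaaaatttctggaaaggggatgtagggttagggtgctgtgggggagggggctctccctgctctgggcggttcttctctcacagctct
Lgals3, chr14:47373610-47373859, plus strand: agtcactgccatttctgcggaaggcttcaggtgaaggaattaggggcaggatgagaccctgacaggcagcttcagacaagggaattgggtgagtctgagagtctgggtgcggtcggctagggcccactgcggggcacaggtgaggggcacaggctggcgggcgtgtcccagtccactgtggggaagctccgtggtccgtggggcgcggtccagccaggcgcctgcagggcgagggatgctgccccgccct

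The motif began 40 bases before the start of Trem2, 30 before that of C1qb and 193 before that of C1qc, and these letters were not in the Lgals3 window. RefSeq windows were matched for 24 of the 33 members, of which 13 (54.2%) held the motif, against 25.9% of 27025 genes and 23.3% of 32851 windows. The longer form GAGGAAGT, which contains the shorter one, was in 2 of the 24, C1qc and Pf4, and in 2.79% of genes. Of the 7 risen members with a window, Trem2, Ctss, Laptm5, C1qb and C1qc held GAGGAA, and Cx3cr1 and Mpeg1 did not. A match is a run of letters and says nothing of binding.

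Among the 9 resident genes 1 rose. Cx3cr1 (chromosome 9, 119901616 to 120069879) is the receptor for fractalkine. It measured 50.7, 48.6, 53.6 and 66.8 CPM in the controls and 68.5, 77.2, 76.1 and 71.4 CPM in the knockouts. Ctrl 4 stood above the other controls but below all CNP-Cdk7cKO libraries (log2 fold change 0.42 ± 0.09, edgeR adjusted p = 0.0139). The value was 0.63 with the muscle genes as a covariate (edgeR adjusted p = 0.03). With Xist as a covariate it was 0.54 and did not pass (edgeR adjusted p = 0.115), and among the female libraries it was 0.53. Ms4a7, a membrane protein of resident macrophages, measured 6.65 ± 1.22 and 9.20 ± 1.57 CPM (edgeR adjusted p = 0.0845), and the purinergic receptor gene P2ry12 11.5 ± 1.02 and 11.8 ± 1.25 CPM (SD, n = 4).

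The scavenger and lectin genes of the resident group had other values. The mannose receptor gene Mrc1 measured 37.1, 42.7, 42.1 and 49.4 CPM in the controls and 36.5, 44.0, 45.2 and 42.8 CPM in the knockouts, so the groups overlapped throughout (log2 fold change -0.02, 95% interval -0.22 to 0.17). The haemoglobin scavenger receptor gene Cd163 (chromosome 6, 124304656 to 124330527) measured 6.55, 9.67, 10.1 and 8.39 CPM in the controls and 4.71, 3.63, 6.88 and 6.92 CPM in the knockouts. Only Ctrl 1, the female control, lay within the CNP-Cdk7cKO range (-0.65 ± 0.21, edgeR adjusted p = 0.0718; 0.0431 with no count filter, 0.0469 without Ctrl 1, 0.0209 with DESeq2 and 0.0165 with limma-voom). Lyve1 (chromosome 7, 110850607 to 110863239) is a hyaluronan receptor of sheath macrophages and of lymphatic vessels. It measured 9.73, 13.2, 14.0 and 14.7 CPM in the controls and 7.19, 7.35, 13.1 and 9.37 CPM in the knockouts. CNP-Cdk7cKO 3 lay among the controls (-0.48 ± 0.19, edgeR adjusted p = 0.138), and without it Lyve1 fell (-0.70, edgeR adjusted p = 0.024), as it did with limma-voom (-0.61, adjusted p = 0.0468). For Cd163, the run without Ctrl 1 set male controls against female knockouts. With Xist as a covariate the log2 fold changes of Cd163 and Lyve1 were -0.23 and -0.06, and among the female libraries -0.25 and -0.08.

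Of the listed genes of lymphatic endothelium, Prox1 fell from 1.18 ± 0.477 to 0.462 ± 0.185 CPM (SD, n = 4, edgeR adjusted p = 0.0371). That call was lost without any 1 of Ctrl 2 to 4 or CNP-Cdk7cKO 1, 2 or 4. Flt4 and Ccl21a, both named after their values were seen, did not pass (edgeR adjusted p = 0.305 and 0.367). The 5 listed lymphatic genes summed to 45.4 to 51.0 CPM in the controls and 49.2 to 57.2 CPM in the knockouts, most of it Pdpn, which rose (edgeR adjusted p = 0.0191; lost without Ctrl 3 or CNP-Cdk7cKO 2). The part of lymphatic RNA in the values of Lyve1 was not tested. Pf4, a chemokine gene of resident macrophages and platelets, measured 22.8 ± 3.48 and 22.5 ± 5.15 CPM, and the 6 listed platelet genes summed to 7.17 to 10.1 CPM in the controls and 7.90 to 10.2 CPM in the knockouts. Folr2, a folate receptor, measured 6.27 ± 1.07 and 5.97 ± 1.15 CPM. Its value is uncertain, because 63.1% of its exon bases are shared with Gm10602 on the other strand and no source used here says whether counting used strand. Timd4, a receptor for dying cells, measured 0.614 ± 0.206 and 0.548 ± 0.197 CPM.

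**Figure D3:**
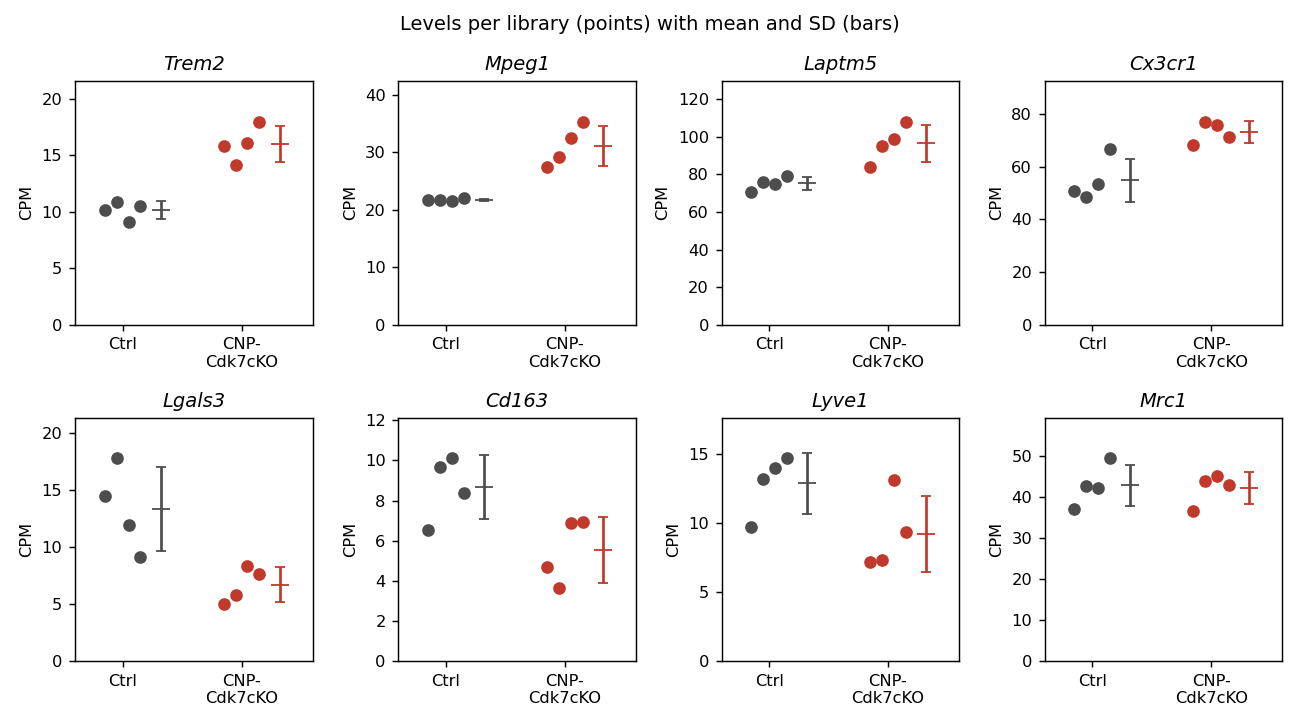
CPM of 8 members in each library (points, replicates 1 to 4 from left to right in each group) with the mean and SD of 4 libraries (bars); the axes start at 0. CNP-Cdk7cKO lies above Ctrl without overlap for Trem2, Mpeg1, Laptm5 and Cx3cr1 and below it for Lgals3, and the groups overlap for Cd163, Lyve1 and Mrc1.

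Markers of recruited cells and of antigen presentation did not pass. Ccr2, the chemokine receptor of recruited monocytes, measured 4.35, 7.08, 3.38 and 2.73 CPM in the controls and 4.35, 6.19, 3.99 and 3.63 CPM in the knockouts, with wide spread in both groups (log2 fold change 0.05, 95% interval -0.56 to 0.67). Cd14, a receptor for bacterial lipopolysaccharide, measured 6.03 ± 1.86 and 6.02 ± 0.500 CPM (SD, n = 4). The 7 monocyte genes summed to 3.17 to 5.53 CPM in the controls and 2.43 to 5.69 CPM in the knockouts. Of the class II genes, the invariant chain gene Cd74 measured 25.0, 34.0, 26.7 and 16.5 CPM in the controls and 31.1, 34.6, 29.7 and 31.5 CPM in the knockouts. H2-Aa and H2-Ab1, which encode the chains of I-A, measured 7.77 ± 2.31 and 10.9 ± 2.83 CPM in the controls and 11.3 ± 0.545 and 12.1 ± 0.453 CPM in the knockouts. All 3 were lowest in Ctrl 4, and without Ctrl 4 H2-Aa was called. Class II loading genes had 0 of 3 tested members called, and H2-DMa measured 66.4 ± 8.09 and 67.9 ± 4.34 CPM.

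To see which members moved apart from the others, levels were also set against 20 macrophage genes that are not members, such as the Fc receptor chain gene Fcer1g, the NADPH oxidase gene Cybb and Fermt3. Of these reference genes 0 rose and 1 fell, and 17 of 20 had a positive log2 fold change, with a median of 0.17. Their mean log2 level was 0.18 higher in CNP-Cdk7cKO, with an SD of 0.12 in Ctrl and 0.17 in CNP-Cdk7cKO. It was 2.58, 2.76, 2.65 and 2.85 in Ctrl 1 to 4 and 2.70, 2.78, 3.06 and 3.01 in CNP-Cdk7cKO 1 to 4, so the groups overlapped and CNP-Cdk7cKO 3 and 4 were the highest. Scaling each library to this mean moves the median of all genes by -0.18, so a gene with equal CPM in both groups reads about that much lower here. On this scale 0.624% of all genes rose and 6.81% fell.

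On the reference scale 1 member rose (3.03%) and 3 fell (9.09%), against 0.624% and 6.81% of all genes. The median of the members was 0.09. Trem2 rose (log2 fold change 0.48 ± 0.13, edgeR adjusted p = 0.0308), and Lgals3 (-1.20 ± 0.19, edgeR adjusted p = 0.000359), Cd163 (-0.85 ± 0.18, edgeR adjusted p = 0.00495) and Lyve1 (-0.68 ± 0.16, edgeR adjusted p = 0.00888) fell. The other 8 members that rose in CPM did not pass: Mpeg1 was at 0.33 (edgeR adjusted p = 0.0686), Ctss at 0.28 and Cx3cr1 at 0.25, while Laptm5, C1qb, C1qc, C1qa and Csf1r had values between 0.06 and 0.20. Their 95% intervals allow a difference of up to 0.56 for Mpeg1 and up to 0.29 for Csf1r.

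Library by library, the log2 level of Trem2 over the reference mean was 0.78, 0.70, 0.55 and 0.56 in Ctrl and 1.29, 1.06, 0.96 and 1.16 in CNP-Cdk7cKO. That of Lgals3 was 1.29, 1.41, 0.95 and 0.36 in Ctrl and -0.33, -0.22, 0.03 and -0.06 in CNP-Cdk7cKO. For both genes the groups did not overlap on this measure, for which the share over all genes was not counted. The 3 falls held without any 1 library, and the rise of Trem2 ended without Ctrl 2, Ctrl 3, CNP-Cdk7cKO 1 or CNP-Cdk7cKO 4 (adjusted p between 0.0513 and 0.119). The run without Ctrl 1 sets male controls against female knockouts, so sex and genotype cannot be told apart in it. With Xist as a covariate Lgals3 was at -1.44, and Cd163, Lyve1 and Trem2, which did not pass, were at -0.57, -0.40 and 0.35. Since Xist was nearly absent from Ctrl 2 to 4, the genotype difference in that fit rests on Ctrl 1 against the knockouts. Among the female libraries Ctrl 1 alone stands for the controls, so the spread of the controls is not measured. Lgals3 was at -1.43 there, and Cd163, Lyve1 and Trem2 were at -0.57, -0.40 and 0.35. The median of all genes was -0.29 in that run and -0.30 with Xist, against -0.17 with all libraries and no covariate. Values in these 2 runs are to be read against those medians. With the muscle genes as a covariate, chosen after the data were seen, Lgals3 and Cd163 fell and Trem2 and Lyve1 did not pass.

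**Figure D4:**
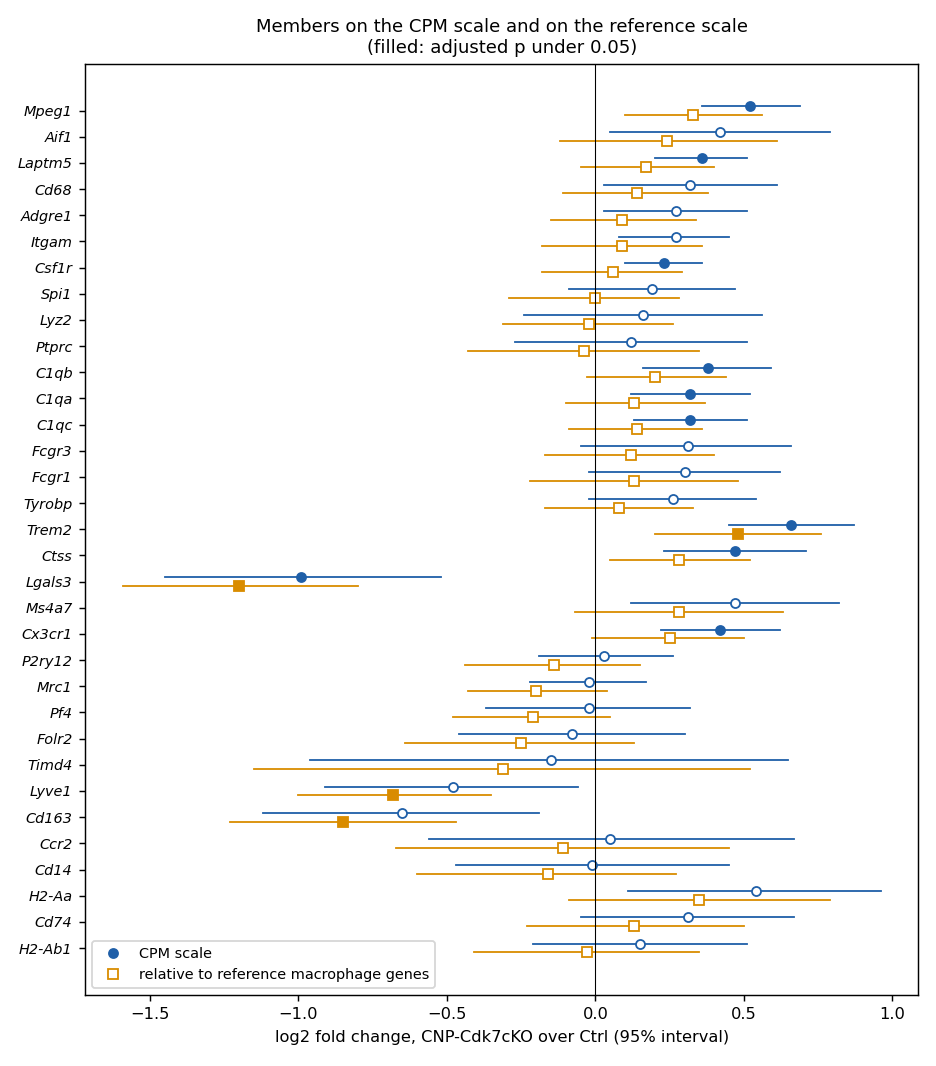
Log2 fold change of each member, CNP-Cdk7cKO over Ctrl, with its 95% interval, on the CPM scale (blue circles) and relative to the reference macrophage genes (orange squares); filled symbols have an adjusted p under 0.05. Trem2 and Lgals3 are filled on both scales, 8 further members on the CPM scale only, and Cd163 and Lyve1 on the reference scale only.

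Of 15 listed genes for macrophage growth and recruitment signals, 10 could be tested, 4 rose and 0 fell. Csf1, a ligand of Csf1r, measured 35.0, 37.7, 41.4 and 40.2 CPM in the controls and 63.7, 55.4, 59.9 and 66.5 CPM in the knockouts, with no overlap (log2 fold change 0.67 ± 0.07, edgeR adjusted p = 0.000275). Il34, the other ligand of that receptor, measured 58.1 ± 4.00 and 52.4 ± 4.16 CPM (SD, n = 4) and did not pass (edgeR adjusted p = 0.201; named after its values were seen). Cx3cl1, which encodes fractalkine, the ligand of Cx3cr1, went from 4.16, 4.14, 4.69 and 3.90 CPM to 17.6, 17.4, 10.6 and 11.9 CPM. That is a 3.40-fold rise, with CNP-Cdk7cKO 1 and 2 highest (1.76 ± 0.18, edgeR adjusted p = 0.000205).

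Csf1 kept its call under every alternative run on the CPM scale, and Cx3cl1 lost it only among the female libraries (1.78, edgeR adjusted p = 0.059). The monocyte attractants Ccl2 and Ccl7 rose from 6.60 ± 1.29 to 9.72 ± 1.44 CPM and from 4.87 ± 0.612 to 6.75 ± 0.435 CPM (SD, n = 4; edgeR adjusted p = 0.0449 and 0.0333). Both calls were lost without Ctrl 1, Ctrl 2, CNP-Cdk7cKO 3 or CNP-Cdk7cKO 4, where 2 genes of the list passed. The libraries do not tell which cells made these transcripts.

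**Figure D5:**
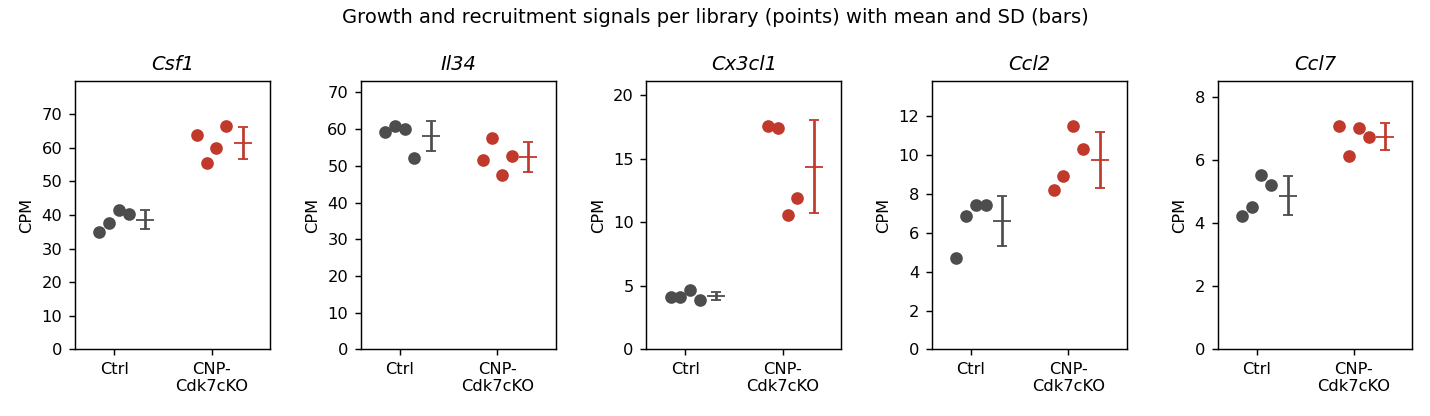
CPM of 5 signal genes in each library (points, replicates 1 to 4 from left to right in each group) with the mean and SD of 4 libraries (bars); the axes start at 0. Csf1 is at 35.0 to 41.4 CPM in the controls and 55.4 to 66.5 CPM in the knockouts, Cx3cl1, Ccl2 and Ccl7 also do not overlap, and Il34 does.

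Other macrophage programmes were mixed. In the list of lipid-handling phagocyte genes 3 of 19 tested members rose and 3 fell, with a median of 0.01. On the reference scale 0 rose and 5 fell, with a median of -0.18, where the median of all genes was -0.17. The lysosomal proteases Ctsb and Ctsd rose from 588 ± 22.0 to 728 ± 43.2 CPM and from 587 ± 17.1 to 721 ± 44.8 CPM (SD, n = 4), and Apoe, an apolipoprotein, from 608 ± 43.6 to 772 ± 59.3 CPM. Lipa, the acid lipase of the lysosome, fell from 109 ± 3.61 to 90.5 ± 4.46 CPM, and Gpnmb and the cholesterol exporter gene Abca1, both named after their values were seen, also fell. Without CNP-Cdk7cKO 1 or CNP-Cdk7cKO 2, 1 member of that list fell. Cell types other than macrophages make most of these products too, and their part in the values was not tested.

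Of 19 tested engulfment genes, the bridging protein gene Mfge8 rose (136 ± 1.15 to 155 ± 9.29 CPM) and Scarb1 and Elmo1 fell, with a median of -0.01. On the reference scale 0 of these rose and 3 fell. Mfge8 lost its call without any 1 of Ctrl 1 to 4 or CNP-Cdk7cKO 3, and 2 members rose without CNP-Cdk7cKO 4; Elmo1 lost its call without any 1 library but CNP-Cdk7cKO 3. Of 10 tested activation genes 1 rose, the cytokine signalling inhibitor gene Socs3 (16.3 ± 1.38 to 21.6 ± 2.50 CPM), a call lost without Ctrl 3. In that list Il10 had no count in any library, and 6 of the 16 were too low to test.

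Of 4 tested genes that are strong in microglia, the macrophages of the brain, 3 rose, among them Fcrls, from 34.1 ± 2.90 to 46.8 ± 5.54 CPM, and Tmem119, from 39.9 ± 1.24 to 48.6 ± 2.29 CPM (SD, n = 4; edgeR adjusted p = 0.00751 and 0.00543). These calls held without any 1 library and were lost with Xist or the muscle genes as a covariate. On the reference scale 0 of the 4 passed, as did 0 of the activation genes, while Csf1 and Cx3cl1 of the signal genes rose.

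Of the 5 epineurial macrophage genes 0 rose and 0 fell in CPM by edgeR, with a median log2 fold change of -0.48 and 0 positive values. With limma-voom and without Ctrl 1, 1 fell. On the reference scale Retnla (-1.25, edgeR adjusted p = 0.0458), Clec10a (-0.67, edgeR adjusted p = 0.0440) and Mgl2 (-0.85, edgeR adjusted p = 0.0272) fell, all 3 named after their values were seen. The most abundant of that list were Cbr2, at 6.69 ± 0.981 and 6.14 ± 1.29 CPM, and Fcna, at 5.68 ± 1.29 and 5.02 ± 0.586 CPM (SD, n = 4; control, then knockout).

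Each of these 3 calls was lost without several single libraries. Retnla, at 6.52 CPM in Ctrl 2 and 1.90 to 2.51 CPM in the other controls, was at -0.72 without Ctrl 2 (edgeR adjusted p = 0.249). Mgl2 was at -0.28 among the female libraries, where the median of all genes was -0.29. Mast cells also lie in the nerve sheath: the 8 mast cell genes summed to 10.7 to 17.5 CPM in the controls and 4.47 to 14.9 CPM in the knockouts, where CNP-Cdk7cKO 3 was highest, and Tpsb2, a mast cell tryptase, fell (edgeR adjusted p = 0.0473), a call lost without any 1 library but CNP-Cdk7cKO 3, without which 4 of the 8 fell. The part of sheath or muscle tissue left on the nerves in the values of Cd163, Lyve1 and these genes was not tested.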

How the data were processed

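RNA was extracted from sciatic nerves, and stranded libraries of polyadenylated RNA were made, per the labels' protocols. The authors deposited a table of estimated counts for each gene. STAR, Salmon and the mouse build GRCm38 are named in the submitters' processing notes, without versions or settings. Of the values 8.29% were not whole; all were rounded. Symbols, coordinates and exon lengths came from GENCODE (GRCm38), and promoter sequences from RefSeq (GRCm38.p6).

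Genes passed filterByExpr (minimum count 10, minimum total 15) and were normalized by TMM. Groups were compared with edgeR 4.0.16 (quasi-likelihood; R 4.3.3). For the reference scale each effective library size was multiplied by 2 to the power of the library's centred mean log2 CPM (prior count 2) over 20 non-member macrophage genes; the reference is treated as known. DESeq2 1.42.0 and limma 3.58.1 served as alternatives. The steps were tested on simulated data.

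Members, lists, tests and alternatives were chosen with earlier results of these data known. All members could be named; from each other list, up to 4 called genes with the smallest p, or, in a list with no call, its 2 most abundant genes. Replicate pairs differed by more than counting noise (chi-square per degree of freedom 3.86 to 17.6). Some results on genes of the other lists are not reported here.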

Additional observations from a re-analysis of the deposited data

Results flagged for a closer look

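Among 66 groups of 4 values checked (33 members in each group of libraries), 2 held a library far from the other 3 by Dixon's test, and chance gives about 1 in 20. H2-Aa was 4.34 CPM in Ctrl 4, against 8.51 to 9.20 CPM in the other Ctrl libraries. C1qa was 68.8 CPM in Ctrl 4, against 58.5 to 60.2 CPM in the others. Ctrl 4 is also the library with the most skeletal muscle RNA (5645 CPM over the listed genes). With the muscle genes as a covariate the log2 fold change of H2-Aa was 0.12, against 0.54 without it. Beyond that fit, the part of muscle RNA in the Ctrl 4 values was not tested.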

How the results depend on the processing

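The counts of called members varied with the setting; all of the 10 calls kept their sign in every setting run on the CPM scale, and the 4 calls of the reference scale kept theirs in every setting run there. Against 9 rises, 1 passed with the muscle genes as a covariate, 1 with Xist as a covariate and 0 among the female libraries, and 4 to 10 with a library left out. Against 1 fall, 2 passed with no count filter, 2 with DESeq2, 3 with limma-voom, 2 with the replicate block, 0 with Xist, 0 among the female libraries, and 1 to 2 with a library left out. On the reference scale, against 1 rise, 3 passed with the reference mean as a covariate, 3 with the replicate block, 0 with Xist, 0 among the female libraries, 0 with the muscle genes, and 0 to 1 with a library left out. Against 3 falls there, 5 passed with 7 macrophage markers as the reference (all of them members, Trem2 and Cx3cr1 among them), 1 with Xist and 3 whichever library was left out. Without Ctrl 1 all controls left were male and all knockouts female. With Xist as a covariate the genotype difference rests on Ctrl 1 against the knockouts, as it does among the female libraries. Calls over all genes changed too: on the CPM scale 763 genes rose without a covariate, 131 with the muscle genes and 75 with Xist. The cause of these differences was not tested.

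Replicate numbers are shared by the groups, but same-numbered libraries did not deviate together (correlations of 0.04, 0.08, 0.13 and 0.01 over genes, and not every library correlated best with its own number), so the replicate block is given only here: 10 members rose and 2 fell with it, and 1 of the epineurial genes fell. Timd4 was too low for the filter of 1 CPM in 4 libraries. At these depths members of a few CPM, such as Ccr2 and Timd4, have wide intervals (-0.96 to 0.65 for Timd4).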
